A study of Mus musculus with 19 samples.

Results

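The genes described here are the 8 genes of the interleukin-1 (IL-1) and interleukin-18 (IL-18) system named by Il1a, Il1b, Il1rn, Il1r1, Il1r2, Il1rap, Il18 and Il18bp. They were taken by name and not by their values from a table of raw read counts for 56980 genes, and all 8 were among the 18739 genes with enough counts to be tested. The table holds 19 RNA-sequencing libraries of CD11b+ cells, each from the brain of 1 male mouse aged 3 to 4 months, without the olfactory bulb and the cerebellum. CD11b, an integrin chain found on microglia and on most other myeloid cells, was the handle by which magnetic beads pulled these cells from the brain suspension (MACS). Wildtype mice and PARK7/DJ-1 KO littermates were injected intraperitoneally with the bacterial endotoxin LPS at 4 µg per g of body weight or with saline (PBS), and the brains were taken after 6 h. The groups held 5 KO and 5 wildtype mice given LPS and 5 KO and 4 wildtype mice given PBS, and the PBS groups are called baseline here. The KO allele is a gene trap in Park7 that every cell of the mouse carries, bred onto the C57BL/6NCrl background, so the comparisons of genotype are not limited to myeloid cells.

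IL-1α and IL-1β, encoded by Il1a and Il1b, are early inflammatory cytokines that myeloid cells make when LPS engages Toll-like receptor 4. Both bind the receptor encoded by Il1r1, which then recruits the accessory chain encoded by Il1rap to signal. The system carries its own brakes, since Il1rn encodes the IL-1 receptor antagonist that occupies the receptor without signalling, and Il1r2 encodes a decoy receptor that binds IL-1 but lacks the signalling domain. IL-18 is made as a precursor that is cut by caspase-1, and Il18bp encodes a secreted protein that binds IL-18 and keeps it from its receptor. In the brain, microglia are known as a main source of IL-1, and vascular endothelial cells as a main site of Il1r1.

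Levels are given in CPM, that is, counts per library size in units of 1000000 reads after TMM normalization, with the mice of a group in the order of their replicate number. Total counts per library were between 11936364 and 22788884. Park7 was at 20.6 to 25.2 CPM at baseline and 22.3 to 32.1 CPM after LPS in wildtype mice, against 0.457 to 2.59 and 1.69 to 5.38 CPM in KO mice, with no overlap between the genotypes. The summed level of 9 microglia markers was 25270 to 39720 CPM in wildtype and 26760 to 40570 CPM in KO mice at baseline, and 10570 to 17000 and 10930 to 16960 CPM after LPS. The sum of 8 neutrophil markers was 52.5 to 97.6 CPM at baseline and 159.7 to 453 CPM after LPS in wildtype mice, and 20.9 to 185 and 99.99 to 447 CPM in KO mice. That of 6 monocyte markers was 37.2 to 52.7 CPM at baseline and 279 to 477 CPM after LPS in wildtype mice, and 29.0 to 64.7 and 179 to 460.1 CPM in KO mice. Lymphocyte markers had a sum of 8.06 to 12.5 CPM at baseline and 2.22 to 5.49 CPM after LPS in wildtype mice, and 8.99 to 11.4 and 2.14 to 2.97 CPM in KO mice. Border-associated macrophage markers were at 519 to 627 CPM at baseline and 302 to 518.5 CPM after LPS in wildtype mice, and at 473 to 636 and 272 to 487 CPM in KO mice. The shift of these sums with LPS ran beside the changes of the 8 genes, and its part in them was not tested except as given below. None of the 8 neutrophil, 6 monocyte or 6 endothelial markers was at 0 in any group. In such bulk libraries, fewer cells of a type and less RNA per cell cannot be told apart.

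LPS raised 7 of the 8 genes in wildtype mice and the same 7 in KO mice, and it lowered none. In both genotypes Il1rn changed most, followed by Il1b, Il1r2, Il1a, Il18bp, Il1r1 and Il1rap, and Il18 was the gene that did not pass the test. In KO mice Il1r1 and Il1rap changed places in some alternative fits. A gene was called when its adjusted p was under 0.05 and its log2 fold change (log2FC) was at least 0.5 in size. Of all genes tested, 18.4% were called higher after LPS in wildtype and 20.1% in KO mice, while 3265 and 3564 of the 18739 genes were called lower. The median log2FC of the 8 genes was 2.54 in wildtype and 2.49 in KO mice, beside -0.063 and -0.010 over all genes tested.

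**Figure D1:**
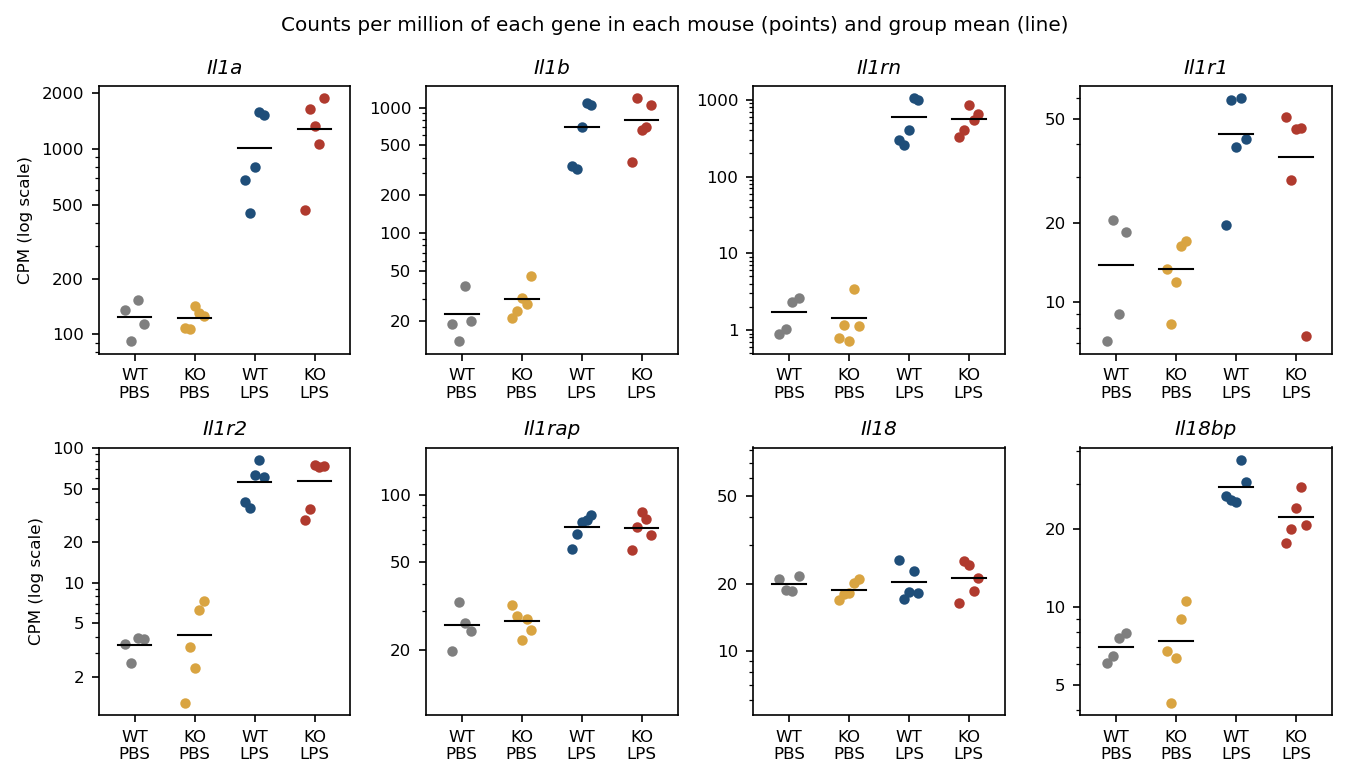
CPM (log axis) of the 8 genes, 1 panel per gene, in each mouse (points) with the mean of its group (line), for wildtype (WT) and PARK7/DJ-1 KO mice given PBS or LPS. In the panels of Il1a, Il1b, Il1rn, Il1r2, Il1rap and Il18bp every LPS-treated mouse lies above every baseline mouse of its genotype, as is so for 20.8% of all genes tested in wildtype and 16.2% in KO mice, in the panel of Il1r1 the groups overlap, and in the panel of Il18 all 4 groups lie between 16.5 and 25.7 CPM.

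Il1a, the gene of IL-1α, lies on the minus strand of chromosome 2 (chr2:129140291-129152098, GRCm39). It was at 136, 91.8, 154 and 114 CPM in the 4 wildtype mice at baseline and at 683, 451, 795, 1584 and 1530 CPM in the 5 wildtype mice given LPS. The KO mice had 108, 106, 143, 130.1 and 125 CPM at baseline and 468, 1637, 1324, 1056 and 1874 CPM after LPS. Every LPS-treated mouse was above every baseline mouse, and the spread among LPS-treated mice was far wider than at baseline. The log2FC of LPS against PBS was 3.03 ± 0.39 (SE) in wildtype and 3.38 ± 0.36 in KO mice, which is 8.14-fold and 10.4-fold (edgeR quasi-likelihood test, Benjamini-Hochberg adjusted p = 4.57e-06 and 3.99e-07).

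Il1b, the gene of IL-1β, lies on the same strand, 54.4 kb from Il1a between the edges of the gene models (chr2:129206490-129213059, GRCm39). Its level was 18.9, 13.8, 37.8 and 20.2 CPM in wildtype mice at baseline and 342, 325, 707, 1092 and 1041 CPM after LPS. In KO mice it was 21.4, 24.2, 30.7, 27.2 and 45.5 CPM at baseline and 371, 1188, 668, 697 and 1043 CPM after LPS. The groups were again separate, with the lowest LPS-treated mouse well over the highest baseline mouse. Il1b rose 31.0-fold in wildtype mice (log2FC 4.95 ± 0.48, edgeR adjusted p = 1.56e-07) and 26.6-fold in KO mice (log2FC 4.73 ± 0.43, edgeR adjusted p = 5.07e-08).

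Among LPS-treated mice, the lowest Il1a and the lowest Il1b of each genotype were found in the same mouse, replicate 2 of the wildtype and replicate 1 of the KO group. These were also the libraries with the highest summed level of 16 astrocyte, oligodendrocyte and neuron markers in their groups, at 4486 and 7664 CPM, whereas the other LPS-treated mice had between 759 and 3540 CPM. Without the library of highest neural marker sum in each of the 4 groups, an alternative chosen after the data were seen, the log2FC of Il1a was 3.08 in wildtype and 3.55 in KO mice. That of Il1b was then 4.95 and 4.82.

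The 250 bases before the start of Il1a and of Il1b are shown because these ligand genes are neighbours that rose together, and because both hold the letters of a TATA box at nearly the same distance from the start. They are RefSeq sequence of GRCm38.p6, an older build than that of the counts, from chr2:129309973-129310222 and chr2:129371140-129371389, both on the minus strand and written 5′ to 3′ toward the gene. Capitals mark TATAAA, the core of a TATA box, and GAGGAA, the core of the site of the myeloid factor PU.1.
Il1a: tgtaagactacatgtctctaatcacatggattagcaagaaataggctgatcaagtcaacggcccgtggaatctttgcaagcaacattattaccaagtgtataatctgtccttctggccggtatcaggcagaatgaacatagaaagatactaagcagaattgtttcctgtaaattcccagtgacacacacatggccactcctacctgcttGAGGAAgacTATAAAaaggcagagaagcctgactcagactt
Il1b: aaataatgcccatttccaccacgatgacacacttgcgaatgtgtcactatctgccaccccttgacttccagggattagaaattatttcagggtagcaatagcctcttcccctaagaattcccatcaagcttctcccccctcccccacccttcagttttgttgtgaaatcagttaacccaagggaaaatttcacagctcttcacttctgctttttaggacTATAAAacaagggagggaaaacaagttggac
In these windows TATAAA begins at position -32 of Il1a and at position -31 of Il1b, counted from the annotated start, and GAGGAA begins at position -41 of Il1a, without overlapping it. The search covered both strands of 11 windows of 300 bases (250 before and 50 after a start) that belong to the 8 genes, for the TATA box, the PU.1 core, the C/EBP half-site TTNNGCAA and the NF-kB consensus. Windows of 4 of the 8 genes held TATAAA on either strand, as did 13.6% of all 32851 promoter windows, but the matches of Il18 (position -175) and Il1rn (position 14) were on the strand opposite to the gene. GAGGAA was found for Il1a alone and in 28.3% of all windows. TTNNGCAA was found for Il1r1 and Il18bp, on the strand opposite to the gene, and in 10.8% of all windows. The NF-kB consensus was found before a second annotated start of Il1r1 only, against 4.51% of all windows. The windows of Il1r2 and Il1rap held none of the 4 motifs. A match of letters does not show that a factor binds, and these libraries hold no measurement of binding.

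Il1rn, the gene of the IL-1 receptor antagonist, lies on the plus strand of chromosome 2 away from the ligand genes (chr2:24226865-24241506, GRCm39). At baseline it was near the lower end of what these libraries show, with 17, 17, 35 and 42 counts in the wildtype and 13, 25, 14, 66 and 21 counts in the KO mice. This is 0.886, 1.03, 2.30 and 2.61 CPM and 0.798, 1.16, 0.711, 3.46 and 1.13 CPM, above the 0.139 to 0.256 CPM to which 3 counts correspond, a limit that covers counting error only. After LPS it reached 302, 256, 403, 1052 and 997 CPM in wildtype and 329, 410.0, 848, 541 and 662 CPM in KO mice. The lowest LPS-treated mouse was thus far above the highest baseline mouse, which was replicate 4 of the KO group. The rise was 356-fold in wildtype mice (log2FC 8.47 ± 0.67, edgeR adjusted p = 1.45e-08) and 381-fold in KO mice (log2FC 8.57 ± 0.60, edgeR adjusted p = 2.38e-09). Without that KO mouse the log2FC in KO mice was 9.18.

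The receptor genes Il1r2 and Il1r1 are neighbours on the plus strand of chromosome 1, where 6 receptor genes of the family follow each other in the order Il1r2, Il1r1, Il1rl2, Il1rl1, Il18r1 and Il18rap over 478 kb. Il1r2, the decoy receptor (chr1:40113239-40164391, GRCm39), was at 3.55, 2.55, 3.88 and 3.85 CPM in wildtype and 1.29, 3.37, 2.34, 6.34 and 7.29 CPM in KO mice at baseline. After LPS it was at 39.8, 36.2, 62.6, 82.1 and 61.5 CPM in wildtype and 29.4, 35.4, 75.2, 72.5 and 73.8 CPM in KO mice. The groups did not overlap in either genotype, although the KO mice at baseline spread more widely than the wildtype mice. Its log2FC was 4.03 ± 0.46 in wildtype (16.3-fold, edgeR adjusted p = 1.09e-06) and 3.79 ± 0.41 in KO mice (13.8-fold, edgeR adjusted p = 4.48e-07).

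Il1r1, the signalling receptor (chr1:40264174-40356417, GRCm39), rose less than Il1r2 did, and unevenly over mice. It was at 7.09, 20.7, 9.0 and 18.5 CPM in wildtype and 13.4, 8.27, 11.9, 16.3 and 17.1 CPM in KO mice at baseline. With LPS the values were 19.7, 59.3, 39.1, 60.0 and 41.9 CPM in wildtype and 50.9, 29.3, 45.7, 46.1 and 7.44 CPM in KO mice. In each genotype 4 of the 5 LPS-treated mice were above all baseline mice, replicate 1 of the wildtype group lay within the baseline range, and replicate 5 of the KO group lay below every baseline KO mouse. Il1r1 was still called, with a log2FC of 1.67 ± 0.46 in wildtype (95% interval 0.71 to 2.63, edgeR adjusted p = 0.00596) and 1.42 ± 0.42 in KO mice (95% interval 0.54 to 2.30, edgeR adjusted p = 0.00905).

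The mice with the least Il1r1 after LPS were those with the fewest reads of endothelial genes, and also of mural or fibroblast and of astrocyte genes. The summed level of 6 endothelial markers was 26.7 CPM in replicate 5 of the KO group and 85.5 CPM in replicate 1 of the wildtype group, against 218 to 596 CPM in the other 8 LPS-treated mice. In the same mice the sum of mural or fibroblast markers was 13.8 and 55.1 CPM against 141 to 491 CPM in the others, and that of astrocyte markers 200.5 and 530.2 CPM against 706 to 4553 CPM. At baseline the endothelial sum was 417 to 1443 CPM in wildtype and 657 to 1308 CPM in KO mice, with medians of 836.5 and 717 CPM against 352.5 and 278 CPM after LPS, so the median of the sum was lower after LPS while Il1r1 was higher. Across the 10 LPS-treated mice the log2 levels of Il1r1 and of this sum had a Pearson's r of 0.954 (permutation test, p = 0.00096, adjusted p = 0.0024) and a Spearman's rho of 0.770 (permutation test, p = 0.0116, adjusted p = 0.0229). Without the 2 libraries farthest from the median of the sum, which are the low ones named above, r was 0.612, so the relation rested in large part on these mice. Among the 9 baseline mice r was 0.721 (exact permutation test, p = 0.0260, adjusted p = 0.0260) and rho 0.783 (exact permutation test, p = 0.0172, adjusted p = 0.0229), and r was 0.744 without the 2 farthest. Taken by genotype, however, r was 0.97 in the 4 wildtype and 0.087 in the 5 KO mice at baseline, so the baseline relation was not seen in both genotypes, whereas after LPS it was 0.945 in wildtype and 0.961 in KO mice. Groups of this size were not tested.

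With the endothelial sum added to the fit as a covariate, the log2FC of Il1r1 was 2.68 in wildtype and 2.44 in KO mice, that is, larger than without it. This fit and the relations with marker sums were chosen after the values were seen, and the sum itself moved with LPS.

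Levels of Il1r2 ran with those of neutrophil markers, but also with other features of the libraries. Across the 10 LPS-treated mice, Pearson's r between the log2 levels of Il1r2 and the neutrophil sum was 0.887 (permutation test, p = 0.0012, adjusted p = 0.0024) and Spearman's rho 0.891 (permutation test, p = 0.00124, adjusted p = 0.00496), and r was 0.801 without the 2 libraries farthest from the median. Across the 9 baseline mice r was 0.757 (exact permutation test, p = 0.0217, adjusted p = 0.0260), rho was 0.733 (exact permutation test, p = 0.0311, adjusted p = 0.0311) and r was 0.774 without the 2 farthest. By genotype, r was 0.786 in wildtype and 0.95 in KO mice after LPS, and 0.448 and 0.797 at baseline, with no test. No relation with the monocyte sum was computed, which was 379, 279, 349, 477 and 477 CPM in the wildtype and 179, 219, 460, 373 and 224 CPM in the KO mice after LPS. It did not follow Il1r2 in every mouse. KO replicate 5, at 224 CPM, had more Il1r2 than KO replicate 4, at 373 CPM. Wildtype replicate 1, at 379 CPM, had less Il1r2 than wildtype replicate 3, at 349 CPM. In each genotype the mouse with the least Il1r2 after LPS had the lowest monocyte sum. These mice, wildtype replicate 2 and KO replicate 1, also had the lowest Il1a, Il1b and Il1rn of their groups. Their neural marker sums were the highest of their groups, at 4486 and 7664 CPM. The relation of Il1r2 with these other genes and with the neural sum was not tested. The p-values are two-sided and were adjusted over the 4 relations computed, with Pearson's and Spearman's values taken apart. Within each treatment the mice of both genotypes were pooled, and the part of neutrophils, monocytes or endothelial cells in the level of either receptor was not tested.

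**Figure D2:**
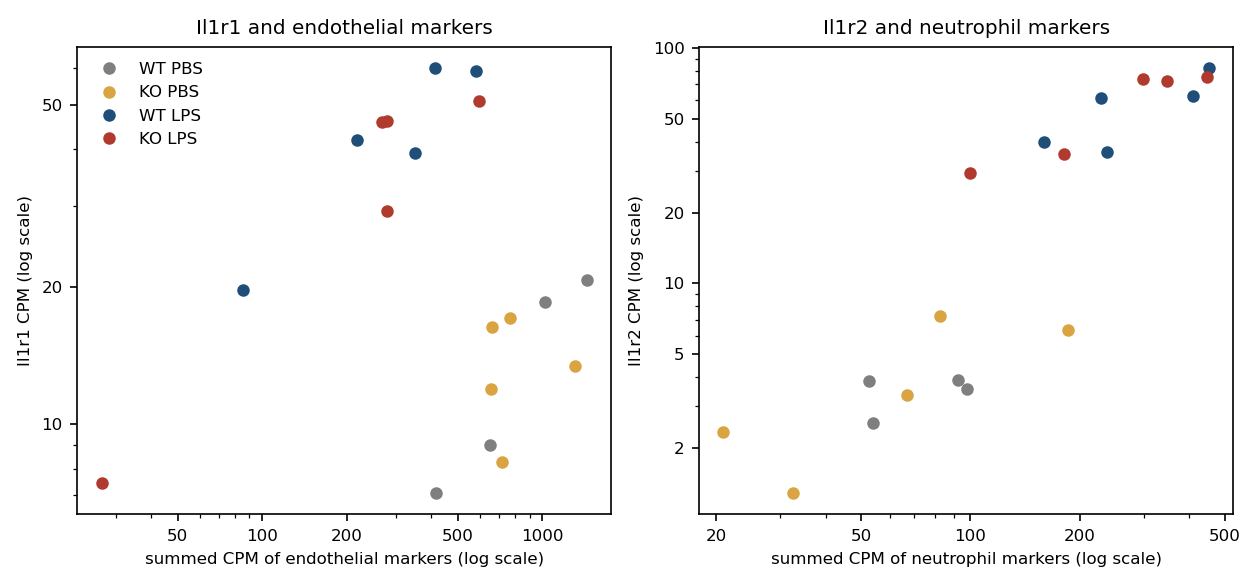
Left, Il1r1 in CPM against the summed CPM of 6 endothelial markers, and right, Il1r2 in CPM against the summed CPM of 8 neutrophil markers, each point being 1 mouse and both axes logarithmic. On the left the LPS-treated mice lie above the baseline mice at like marker levels, with the KO mouse at 26.7 CPM of endothelial markers lowest, and on the right LPS-treated mice lie above baseline mice and mice with more neutrophil markers tend to have more Il1r2.

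Il1rap, the accessory chain of the receptor, lies on chromosome 16 (chr16:26400350-26548880, GRCm39). In the main fit it had the smallest rise among the called genes, with one of the smallest errors. It was at 19.9, 32.9, 26.5 and 24.5 CPM in wildtype and 32.0, 28.7, 22.3, 27.7 and 24.7 CPM in KO mice at baseline. After LPS it was at 57.0, 67.1, 75.3, 77.4 and 81.5 CPM in wildtype and 56.8, 71.7, 84.2, 77.8 and 65.9 CPM in KO mice. No LPS-treated mouse reached down to the baseline range, and the mice within a group were close to each other. The log2FC was 1.47 ± 0.16 in wildtype (2.76-fold, edgeR adjusted p = 4.96e-07) and 1.40 ± 0.14 in KO mice (2.63-fold, edgeR adjusted p = 2.56e-07). In KO mice, however, Il1r1 rose less than Il1rap in some alternative fits. There the log2FC of Il1r1 was as low as 1.136, while that of Il1rap was at least 1.33.

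Il18, on chromosome 9 (chr9:50466081-50493633, GRCm39), did not pass the test in either genotype, unlike both IL-1 ligands. It was at 21.1, 18.8, 18.6 and 21.8 CPM in wildtype and 16.9, 18.02, 18.1, 20.2 and 21.0 CPM in KO mice at baseline. After LPS the values were 25.7, 17.1, 18.4, 22.8 and 18.2 CPM and 16.5, 25.3, 24.4, 18.5 and 21.3 CPM. The groups overlapped in both genotypes, with LPS-treated mice on either side of the baseline range. The log2FC was 0.026 ± 0.15 in wildtype (95% interval -0.28 to 0.34, edgeR adjusted p = 0.912) and 0.17 ± 0.14 in KO mice (95% interval -0.12 to 0.46, edgeR adjusted p = 0.347). Both intervals lie within 0.5 on either side of 0, the size that a call requires.

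Il18bp, which encodes the IL-18 binding protein, lies on the minus strand of chromosome 7 (chr7:101638490-101668206, GRCm39). It was at 6.05, 6.43, 7.56 and 7.95 CPM in wildtype and 6.75, 4.25, 6.35, 9.01 and 10.5 CPM in KO mice at baseline. After LPS it was at 26.8, 26.0, 25.4, 37.1 and 30.4 CPM in wildtype and 17.6, 19.95, 24.1, 29.2 and 20.8 CPM in KO mice. LPS-treated and baseline mice did not overlap in either genotype. The log2FC was 2.06 ± 0.23 in wildtype (4.16-fold, edgeR adjusted p = 7.35e-07) and 1.60 ± 0.21 in KO mice (3.03-fold, edgeR adjusted p = 3.66e-06). The gene model overlaps Numa1 on the other strand, and those of Il1a, Il1b, Il1r2, Il1rap and Il18 also overlap genes on the other strand. Il1r1 and Il1r2 each overlap a further gene model of uncertain status on their own strand. Since the strand setting of the counting is not given in the sources used here, reads of such partners cannot be told apart from those of the gene named.

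To compare the genes with each other, levels were divided by the length of the gene's exons in kb. At baseline in wildtype mice the order by mean CPM per kb was Il1a at 35.5 ± 7.68 (SD, n = 4), Il1b at 8.71 ± 4.01, Il18 at 6.67 ± 0.539, Il1r1 at 2.03 ± 0.993, Il1rap at 1.70 ± 0.354, Il18bp at 1.41 ± 0.182, Il1r2 at 1.37 ± 0.248 and Il1rn at 0.308 ± 0.158. The ranges over mice were separate between Il1a and Il1b, between Il18 and Il1r1 and between Il1r2 and Il1rn, whereas Il1b and Il18, and neighbours among Il1r1, Il1rap, Il18bp and Il1r2, overlapped. In KO mice at baseline the order began alike and Il1b lay wholly above Il18, with 11.5 ± 3.63 against 6.27 ± 0.556 CPM per kb (SD, n = 5), while Il1r2 and Il18bp changed places and Il1rn was again last. Before LPS the most abundant transcript of the set was thus a ligand, and the least abundant was the antagonist.

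After LPS the order changed below the ligands. In wildtype mice Il1a was at 289 ± 148 CPM per kb (SD, n = 5), Il1b at 269.6 ± 141 and Il1rn at 109 ± 70.5, with overlapping ranges between neighbours. Il1r2 followed at 22.4 ± 7.43 CPM per kb, separate from Il1rn above and from Il18 at 6.79 ± 1.22 below. Il1r1 at 6.45 ± 2.44, Il18bp at 5.87 ± 0.983 and Il1rap at 4.69 ± 0.638 CPM per kb came last, each overlapping its neighbour. The KO mice had the same first 6 genes in the same order, with Il1a at 365 ± 157, Il1b at 305 ± 125, Il1rn at 101 ± 37.2 and Il1r2 at 22.7 ± 9.05 CPM per kb, while Il1rap and Il18bp changed places and overlapped. Il1rn moved from the last to the third place, and Il1r2 passed Il1r1, in both genotypes.

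**Figure D3:**
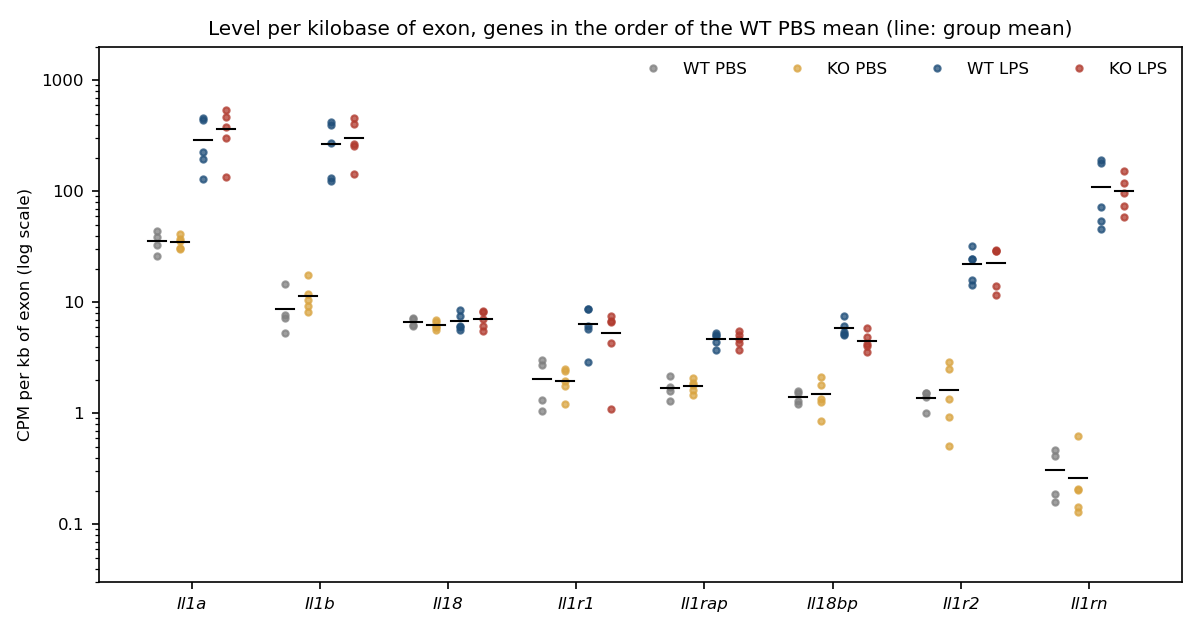
CPM per kb of exon (log axis) of the 8 genes in each mouse (points) with group means (lines), ordered by the mean of wildtype mice at baseline, in the 4 groups of genotype and treatment. Il1a is highest at baseline and Il1rn lowest, and after LPS Il1rn stands behind Il1a and Il1b only while Il18 stays at 5.48 to 8.54 CPM per kb.

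The balance of blocker and ligand was described in each mouse as a ratio of counts per kb, with 0.5 counts added to each gene, and with no test. Il1rn over Il1b was 0.0227 to 0.0614 (median 0.0323) in wildtype mice at baseline and 0.268 to 0.453 (median 0.415) after LPS, and 0.0113 to 0.0600 (median 0.0182) and 0.162 to 0.596 (median 0.365) in KO mice. Against the sum of Il1a and Il1b the antagonist was at 0.00357 to 0.0117 (median 0.00660) at baseline and 0.146 to 0.217 (median 0.182) after LPS in wildtype mice, and at 0.00252 to 0.0132 (median 0.00393) and 0.0800 to 0.241 (median 0.171) in KO mice. LPS-treated and baseline mice did not overlap in either ratio, and in every LPS-treated mouse Il1rn stayed below Il1b on this scale.

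Il18bp over Il18 was 0.174 to 0.247 (median 0.215) in wildtype mice at baseline and 0.631 to 1.01 (median 0.920) after LPS. In KO mice it was 0.144 to 0.305 (median 0.242) at baseline and 0.477 to 0.955 (median 0.598) after LPS, so the treatments were separate in each genotype while the genotypes overlapped. The decoy over the signalling receptor, Il1r2 over Il1r1, was 0.336 to 1.36 (median 0.814) at baseline and 1.65 to 5.46 (median 3.97) after LPS in wildtype mice. In KO mice it was 0.265 to 1.16 (median 1.05) and 1.56 to 26.7 (median 4.25). The highest value belonged to replicate 5 of the KO group, the mouse with little Il1r1 and few endothelial reads. These are ratios of transcripts and not of proteins.

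**Figure D4:**
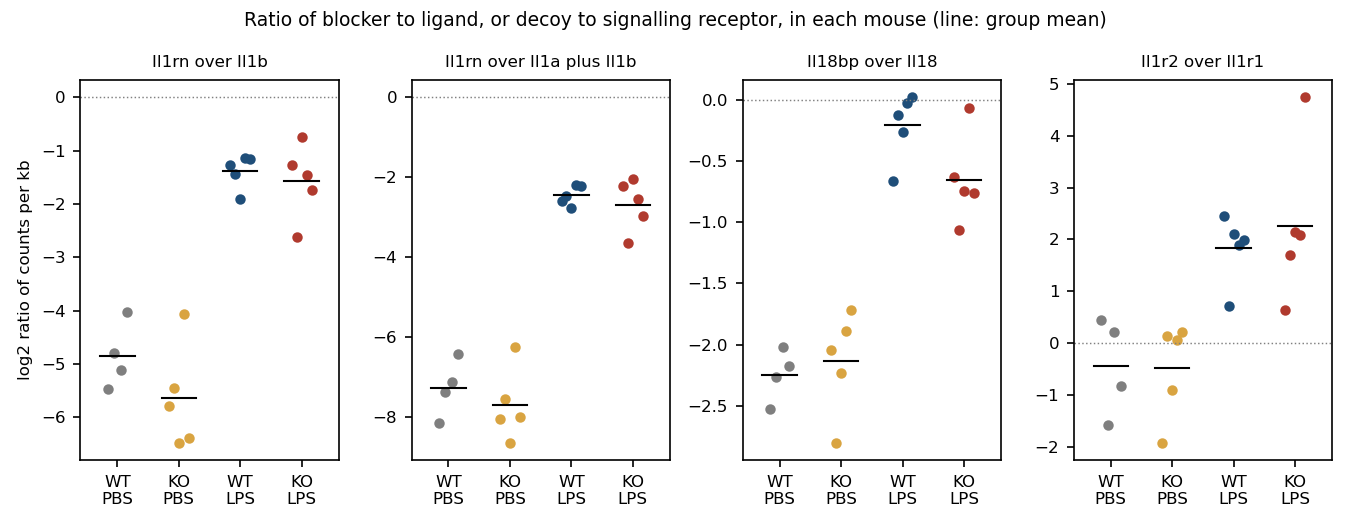
Log2 ratios of counts per kb, 1 panel per ratio, in each mouse (points) with group means (lines), where 0 means equal levels per kb. In all 4 panels the LPS-treated mice lie above the baseline mice of their genotype, and the mice of both genotypes overlap within a treatment.

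Next, KO and wildtype mice were compared within each treatment, with a call at an unadjusted p under 0.05 and a log2FC of at least 0.5 in size. After LPS none of the 8 genes was called, while 1.31% of all genes tested were, and at baseline none was called against 0.800% of all genes. In the edgeR fit of all 4 groups none of the 8 had an unadjusted p under 0.05 in either comparison, and DESeq2 called none of them, but Il18bp after LPS went under 0.05 in other edgeR settings. The values of all 8 genes overlapped between genotypes in both treatments, as did those of nearly all genes tested, 0.219% of which did not overlap after LPS and 0.971% at baseline.

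Il18bp came closest. After LPS 4 of the 5 KO mice were below all 5 wildtype mice, and the log2FC of KO against wildtype was -0.38 ± 0.20 (95% interval -0.80 to 0.037, edgeR unadjusted p = 0.0714, adjusted p = 1.00). At baseline 2 of the 5 KO mice were above and 1 below all wildtype mice, with a log2FC of 0.077 (95% interval -0.38 to 0.53). Without KO replicate 4 after LPS the log2FC was -0.497 (edgeR unadjusted p = 0.03087), and with only the LPS-treated groups in the fit it was -0.38 (edgeR unadjusted p = 0.03923), both below the size that a call requires. The difference was smaller in other settings, at -0.281 without wildtype replicate 4 after LPS (edgeR unadjusted p = 0.1952), -0.304 without KO replicate 1 after LPS (edgeR unadjusted p = 0.1697) and -0.341 without the library of highest neural marker sum in each group (edgeR unadjusted p = 0.1754), and it ranged from -0.497 to -0.281 without 1 mouse.

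For the ligands, the log2FC of KO against wildtype after LPS was 0.34 for Il1a (95% interval -0.36 to 1.03), 0.18 for Il1b (95% interval -0.59 to 0.95) and 0.053 for Il18 (95% interval -0.24 to 0.34). The antagonist Il1rn differed by -0.11 (95% interval -0.99 to 0.77). Among the receptors the values were -0.29 for Il1r1 (95% interval -1.15 to 0.57), 0.021 for Il1r2 (95% interval -0.74 to 0.78) and -0.007 for Il1rap (95% interval -0.31 to 0.29). The intervals of Il1rap and Il18 thus stayed within 0.5 on the log2 scale, whereas those of Il1a, Il1b, Il1rn, Il1r1 and Il1r2 also held differences of 0.5 or more, which these 10 mice could not tell from none.

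At baseline the log2FC of KO against wildtype was -0.016 for Il1a (95% interval -0.76 to 0.72), 0.40 for Il1b (95% interval -0.45 to 1.24) and -0.090 for Il18 (95% interval -0.40 to 0.22). It was -0.21 for Il1rn (95% interval -1.45 to 1.03), -0.043 for Il1r1 (95% interval -0.97 to 0.88), 0.26 for Il1r2 (95% interval -0.62 to 1.14) and 0.061 for Il1rap (95% interval -0.26 to 0.38). The widest interval was that of Il1rn, the gene with the fewest counts at baseline.

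The effect of LPS in KO mice minus that in wildtype mice was tested for all genes, and the share called at an adjusted p under 0.05 was 0%. For the 8 genes the difference ranged from -0.46 for Il18bp (95% interval -1.08 to 0.16, edgeR unadjusted p = 0.137) to 0.35 for Il1a (95% interval -0.66 to 1.36, edgeR unadjusted p = 0.477). Over all genes, 180 of 18739 had an unadjusted p under 0.05 for this difference, none of the 8 genes among them, and DESeq2 called none of the 8. The value of Il18bp depended on single mice, being -0.607 without KO replicate 2 at baseline (edgeR unadjusted p = 0.03049) and -0.303 without KO replicate 5 at baseline (edgeR unadjusted p = 0.3017).

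**Figure D5:**
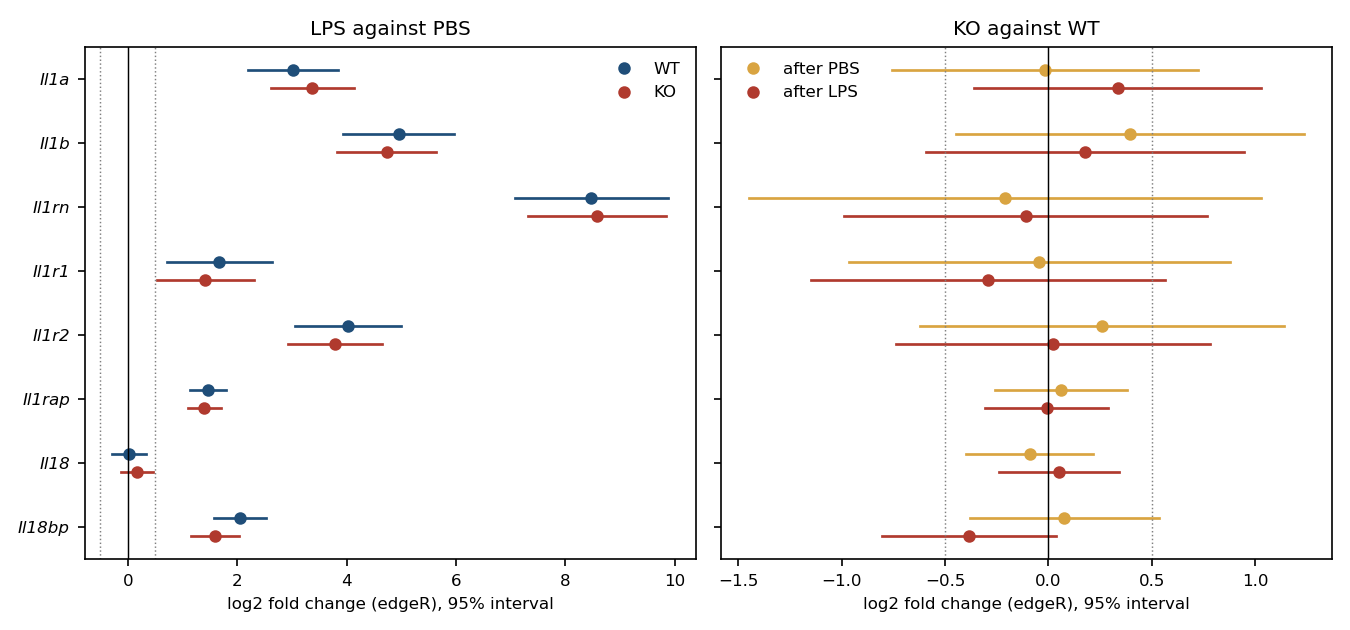
Log2 fold changes with 95% intervals from edgeR for the 8 genes, left for LPS against PBS in wildtype (WT) and KO mice and right for KO against wildtype after PBS and after LPS, on axes of different scale, with dotted lines at -0.5 and 0.5. On the left the intervals of all genes but Il18 lie above 0.5, and on the right the interval of every gene includes 0.

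The 28 other genes of the pathway that were examined comprise further ligands and receptors of the family, the machinery that processes IL-1β and IL-18, and the signalling proteins below the receptor. Of these, 23 had enough counts to be tested, and Il36a, Il36b, Il36rn, Il1f10 and Il1rapl2 did not. After LPS 8 were called higher and 1 lower in wildtype mice, and 8 higher and 1 lower in KO mice, beside the 18.4% and 20.1% of all genes that were called higher. The median log2FC of the 23 genes was 0.32 and 0.28, beside -0.063 and -0.010 over all genes. Between genotypes none of the 23 was called in either treatment, where 1.31% of all genes were called after LPS and 0.800% at baseline.

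Among the receptors, Il18rap, the accessory chain for IL-18, was called higher, with a log2FC of 3.59 ± 0.52 in wildtype and 3.79 ± 0.48 in KO mice (edgeR adjusted p = 1.67e-05 and 2.64e-06). Il18r1, the chain that binds IL-18, was called in wildtype mice (2.24 ± 0.65, edgeR adjusted p = 0.00882) and not in KO mice (1.37 ± 0.59, edgeR adjusted p = 0.0635), with at most 31 counts in any library, and the difference between the genotypes was not called. The level of Il18rap was 1.64 to 4.73 CPM at baseline and 23.8 to 56.4 CPM after LPS in wildtype mice, and 1.60 to 4.82 and 15.1 to 88.8 CPM in KO mice. Sigirr, an inhibitory receptor of the family, was the gene called lower (-1.40 ± 0.51 in wildtype and -1.27 ± 0.49 in KO mice, edgeR adjusted p = 0.0354 and 0.0397). It had only 10 to 38 counts in wildtype and 1 to 44 counts in KO mice after LPS. The lowest were in wildtype replicate 1 and KO replicate 5, the LPS-treated mice with the fewest endothelial reads, and the part of this in the fall was not tested. Il36g, a ligand of the IL-36 branch, rose by a log2FC of 5.01 ± 0.75 in wildtype and 4.42 ± 0.65 in KO mice (edgeR adjusted p = 2.24e-05 and 1.65e-05). Its baseline counts were only 1 to 18 in wildtype and 2 to 27 in KO mice, so the size of this rise is uncertain.

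Of the 4 processing genes, Nlrp3, the sensor of the inflammasome, was called higher, at 111 to 126 CPM at baseline and 347 to 808 CPM after LPS in wildtype mice (log2FC 2.16 ± 0.28, edgeR adjusted p = 5.32e-06) and with a log2FC of 2.36 ± 0.26 in KO mice (edgeR adjusted p = 5.88e-07). Casp1, the protease that cuts the precursors, had a log2FC of 0.26 in wildtype and 0.25 in KO mice, the adaptor Pycard one of 0.34 and 0.16, and the pore protein Gsdmd one of -0.042 and -0.19, none of them called. Below the receptor, the adaptor Myd88, the inhibitory kinase Irak3 and the ubiquitin ligases Traf6 and Peli1 were called higher in both genotypes. Irak3 rose most, by a log2FC of 3.40 ± 0.34 in wildtype and 3.28 ± 0.31 in KO mice (edgeR adjusted p = 2.01e-07 and 6.91e-08). Irak2 was called in KO mice, at a log2FC of 0.51, and lay just under the required size in wildtype mice, at 0.49.

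Finally, the protein-coding genes whose levels over the 19 libraries ran closest to each of the 8 genes were listed by the root mean square (RMS) difference of log2 CPM, each gene being centred on its own mean, among 14468 genes. For Il1a these were Il6 (RMS 0.28), Map3k8 (0.29) and Pfkfb3 (0.30), and for Il1b Ptgs2 (0.28), Cxcl2 (0.41) and Tlr2 (0.44). For Il1rn they were Ccl5 (0.55), Slfn4 (0.78) and Csf3 (0.86), the widest distances of the 8 genes. Il1r2 had Cxcr2 (0.27), a chemokine receptor gene of neutrophils that is among the 8 markers used above, then Slpi (0.32) and Clec4d (0.38), whereas Il1r1 had Mamstr (0.32), Lrrc8c (0.33) and Pdlim1 (0.34). Il1rap had Tmbim1 (0.16), Nopchap1 (0.17) and Gk (0.18), Il18bp had Metrnl (0.26), Oas1b (0.27) and H2-Q4 (0.28), and Il18, which moved little, had Zfp445 (0.12), Mysm1 (0.12) and Gtpbp10 (0.13). All 19 libraries enter each distance and share their treatment groups, and no test was made.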

How the data were processed

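RNA was sequenced from CD11b+ brain cells of 19 mice. The authors depleted ribosomal RNA, built stranded libraries, trimmed the paired reads with Cutadapt, and mapped and counted them with STAR 2.7.9a on GRCm39. The deposited values are raw counts per Ensembl gene, 1 column per mouse, without normalization. Names, positions and exon lengths came from GENCODE M39 on the same build, which named 56236 of the 56980 genes. Promoters were matched by symbol for all 8 genes in a RefSeq table of GRCm38.p6.

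The counts entered edgeR 4.0.16 under R 4.3.3. The filter was filterByExpr with 10 as its smallest count and 15 as its smallest total, library sizes were scaled by TMM, and 1 quasi-likelihood model held all 19 libraries in 4 groups. Adjustment followed Benjamini and Hochberg over all 18739 genes. The thresholds for KO against wildtype and for LPS against PBS follow the study. SEs were derived from each log2FC and its F statistic, and 95% intervals use the t distribution. Fits were tested on simulated counts with known changes. DESeq2 1.42.0, other filters and size factors, a replicate block and leaving out each mouse were the alternatives. Within groups, all 36 pairs of libraries differed by more than sampling noise.

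The 8 genes, the 28 pathway genes, the marker lists and the tests were chosen with earlier results of these data known. The genes named are these, Park7, and the 3 nearest profiles of each of the 8, and Numa1 is named only for its position. Of 64 markers, 63 were found in the table.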

Additional observations from a re-analysis of the deposited data

Results flagged for a closer look

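Il1rn at baseline in KO replicate 4 stood apart from its group, at 3.46 CPM (66 counts) against 0.711 to 1.16 CPM in the other 4 mice, a gap of 0.838 of the group's whole range. By Dixon's criterion it was the only value that stood apart among 48 groups of 4 or 5 mice examined. These were 8 genes in CPM and 4 ratios on the log2 scale in 4 groups, of which chance alone flags about 1 in 20. The flag depends on the scale. As a plain ratio, Il1r2 over Il1r1 in KO replicate 5 after LPS also lay far from its group, at 26.73 against 1.559 to 4.445 in the other mice. KO replicate 4 at baseline also had the highest sum of neutrophil markers among the baseline mice, at 185 CPM. The part of these markers in its Il1rn level was not tested.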

How the results depend on the processing

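The 7 calls of LPS against PBS in each genotype, and the absence of a call among the 8 genes between genotypes and in the interaction, held under every alternative and without any mouse. By adjusted p the weakest of these calls was Il1r1 in KO mice. Its log2FC was as low as 1.136 and its adjusted p as high as 0.04138 over the edgeR and DESeq2 alternatives. Fold changes that were never called turned sign in some settings. For Il18 after LPS in wildtype mice the log2FC was -0.008 without a low-count filter, -0.041 with at least 10 counts in every sample, -0.011 with only the groups compared, -0.095 with the endothelial covariate, and -0.070 to 0.100 without a mouse. For KO against wildtype after LPS, Il1rap was at 0.005 with DESeq2's size factors and in DESeq2, 0.032 with the endothelial covariate, 0.045 without the libraries of highest neural sum and -0.080 to 0.069 without a mouse, and Il1r2 was at -0.090 with the endothelial covariate. The ranges without a mouse were -0.013 to 0.394 for Il1b, -0.311 to 0.189 for Il1rn, -0.100 to 0.195 for Il1r2 and -0.019 to 0.149 for Il18. For KO against wildtype at baseline, Il1r1 was at 0.088 with the endothelial and 0.089 with the neural covariate and 0.211 without the libraries of highest neural sum, and Il1a at 0.007 with the neural covariate. The ranges without a mouse were -0.130 to 0.104 for Il1a, -0.816 to 0.087 for Il1rn, -0.260 to 0.222 for Il1r1, -0.038 to 0.481 for Il1r2, -0.046 to 0.200 for Il1rap and -0.079 to 0.224 for Il18bp. In the interaction they were -0.191 to 0.706 for Il1rn, -0.515 to 0.010 for Il1r1, -0.460 to 0.061 for Il1r2 and -0.207 to 0.039 for Il1rap. Other values kept their sign without a mouse but moved by over 1.5 times. For LPS against PBS in KO mice Il18 was at 0.098 to 0.263. After LPS, KO against wildtype was 0.151 (without wildtype replicate 2) to 0.557 (without wildtype replicate 4) for Il1a and -0.480 (without wildtype replicate 1) to -0.033 (without KO replicate 5) for Il1r1. At baseline it was 0.199 (without KO replicate 5) to 0.758 (without wildtype replicate 3) for Il1b and -0.125 to -0.036 for Il18. The interaction was -0.607 to -0.303 for Il18bp, 0.158 to 0.573 for Il1a, -0.580 to -0.002 for Il1b and 0.072 to 0.240 for Il18. The cause of these shifts was not tested. Covariates and the removal of libraries by neural sum were chosen after the data were seen.

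The replicate block gave a log2FC of 0.083 for Il1rn and -0.021 for Il1r2 between genotypes after LPS, 0.133 for Il1r1, -0.039 for Il1r2 and -0.009 for Il18bp at baseline, and 0.029 for Il1b and 0.018 for Il1r2 in the interaction, and changed no call among the 8 genes. For Il18bp between genotypes after LPS the block gave -0.385 with an unadjusted p of 0.02765 in edgeR, the smallest p of any setting for that value. Same-numbered mice are different animals. Correlations of their deviations ranged from -0.573 to 0.3 between genotypes after LPS (mean -0.102) and from -0.29 to 0.299 at baseline (mean -0.006). Between treatments they leaned positive, from -0.042 to 0.576 in wildtype (mean 0.325) and from 0.027 to 0.544 in KO mice (mean 0.254). Whether mice of the same number share a batch was not tested. Best matches with the own number were 1 of 5 pairs between genotypes after LPS, 2 of 4 at baseline, 2 of 4 between treatments in wildtype and 3 of 5 in KO mice.

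Over all genes, the 245 calls of KO against wildtype after LPS became 854 without a filter, 111 with at least 10 counts in every sample, 105 with only these groups, 2 by adjusted p at any fold, and 228 to 434 without a mouse, the 434 being without KO replicate 5. The 150 calls at baseline became 680 without a filter, 58 with at least 10 counts in every sample, 234 with the block and 1 by adjusted p. Without division by length Il1rap stood higher and Il18 lower in the order of levels of every group, and other size factors did not change the order. The mean log2 ratios moved by less than 1 SD of their group with 2 counts added in place of 0.5. Depth limits Il1rn and Il1r2 at baseline most, with as few as 13 and 21 counts in a library.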
